A study of Mus musculus with 6 samples.

Results

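A set of 40 genes of immature neurons and neuronal differentiation was read out of the 21899 genes in the count table by gene symbol, and all 40 were found. The set holds cytoskeletal proteins of growing neurites, neuronal RNA-binding proteins, transcription and chromatin factors, adhesion and guidance molecules and Notch pathway genes. It also holds Igfbpl1, Lrtm1, Rgs13 and Piwil4, which the study itself displayed in a heatmap of its most significantly higher genes in these same mice, so their direction is not independent evidence. Male C57BL/6J mice of wild-type genotype, 8 to 10 weeks old when bought, received a single dose of 50 Gy of gamma rays to the left thalamus, and 2 weeks later 2 µL of AAV9 virus was injected into the thalamus. In the 3 RC mice (radiation and control virus) the virus was GFAP104::tdTomato, a red fluorescent protein under a promoter made for astrocytes. In the 3 RN mice (radiation and NeuroD1) it was GFAP104::mND1-tdTomato, which adds mouse NeuroD1 to the same construct. AAV9 enters neurons as well as astrocytes, so cell specificity rests on that promoter and on the dose of virus. The thalamic tissue beneath the hippocampus was taken whole at 6 weeks after irradiation, so each library mixes all cell types of the dissected piece. Both groups were irradiated and injected, and mice without radiation were not analysed here.

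Newborn neurons pass through a stage in which they leave the cell cycle, migrate and extend neurites before they form synapses. Doublecortin, stathmins, collapsin response mediators and neuronal tubulins build and remodel microtubules at this stage, Hu proteins and SRRM4 switch splicing to neuronal forms, and DLX, SP, MYT and CoREST factors set the lineage. NeuroD1 is a basic helix-loop-helix factor that acts in neuronal differentiation and binds E-box motifs. Many of these genes remain active in mature neurons, so their transcripts in adult thalamus need not come from newborn cells.

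Between 16561663 and 18657015 reads were counted on genes per mouse. Neurod1 gave 84, 91 and 90 reads in RC replicates 1, 2 and 3, against 1123, 1711 and 910 in the RN replicates of those numbers, which can include viral transcripts (log2 fold change 3.77, edgeR adjusted p = 0.00178). All 10 thalamus markers passed the filter on low counts. Markers of neighbouring tissue varied between mice. The summed level of 11 choroid plexus markers was 2825, 8510 and 366.1 counts per 1000000 reads (CPM) in RC replicates 1 to 3 and 105.9 to 183.6 CPM in RN. The summed level of 15 hypothalamus markers was 24.6 to 209.0 CPM in RC against 241.1 to 440.8 CPM in RN.

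None of the 40 members passed edgeR's quasi-likelihood test with a Benjamini-Hochberg adjusted p below 0.05 together with a change of at least 2-fold. Over all 14956 tested genes the same rule called 9 genes higher in RN (0.0602%) and 2 lower (0.0134%). The filter on low counts kept 39 members and removed Lrtm1. Of the 40 members, 37 had a mean of at least 10 counts in both groups. Rgs13 and Piwil4 had under 10 counts in every RC mouse and passed the filter only through their RN mice. A gene so low in RC could enter only by being higher in RN, so their direction is no evidence. Both are among the higher and the non-overlapping members counted below. Of all tested genes, 5.44% were higher and 6.33% lower at an unadjusted p under 0.05. Among the members 8 were higher and 2 lower. Of the 36 members outside the study's display, 5 were higher and 2 lower. The 8 higher members were Rgs13, Igfbpl1, Piwil4, Marcksl1, Rcor2, Dll3, Dlx1 and Celsr3, and the lower ones Tubb2b and Pax6. Of these, 3 lost an unadjusted p under 0.05 when a mouse was left out: Celsr3 without RC replicate 2 or 3 or RN replicate 1 or 3, Tubb2b without RC replicate 2 or RN replicate 1 or 2, and Pax6 without RC replicate 1 or 3 or RN replicate 2 or 3. Pax6 also lost it with the replicate block. With each mouse left out in turn, between 8 (without RN replicate 1) and 12 (without RN replicate 2) members were higher. Removing RC replicate 2, the mouse with the highest choroid plexus level, gave 11 higher and 1 lower. Removing RC replicate 1 gave 11 higher and 2 lower. The share of all tested genes in these fits was not counted, so the moves from 8 cannot be set against it. Every RN mouse lay above every RC mouse in 9 tested members and below in 1, against 8.18% and 8.12% of all tested genes. Outside the study's display these counts of members were 6 and 1. With the replicate number as a block, 13 members were higher and 1 lower at an unadjusted p under 0.05 (6.63% and 6.97% of all tested genes), and again none was called (0.114% and 0.0334%). DESeq2's Wald test, the tool of the study, called 5 members higher, namely Rgs13, Lrtm1, Igfbpl1, Piwil4 and Dlx1, and none lower. Of its 16228 genes it called 99 higher (0.61%) and 87 lower (0.536%). The study reports more genes in each direction from DESeq2 at the same thresholds, so these calls are not its own. Without the fold threshold DESeq2 gave 7 members higher, adding Marcksl1 and Rcor2, and none lower, where 1.38% and 1.55% of its genes were. Of the 5 called, only Dlx1 lies outside the study's own display.

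**Figure D1:**
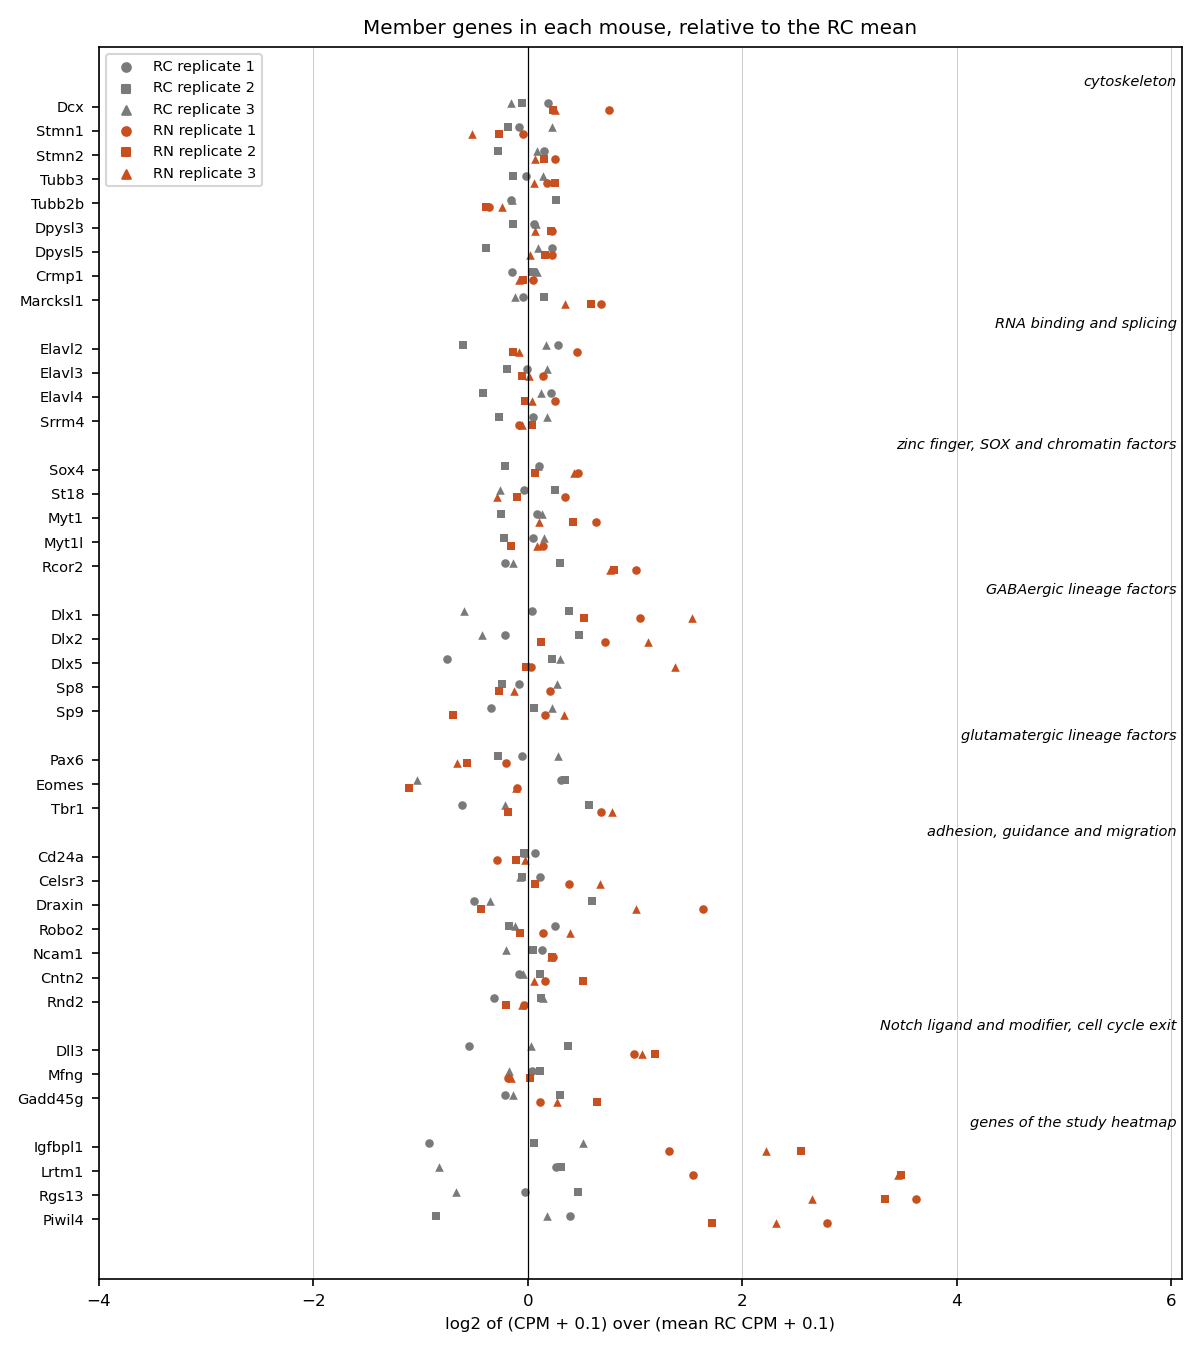
The log2 ratio of each member's CPM to the RC mean (horizontal axis, 0.1 CPM added to both) is shown for each mouse, RC in grey and RN in orange, with a marker shape for each replicate number and members grouped by role. Most members scatter around 0 in both groups, while the 4 genes of the study's display, at the bottom, lie to the right in every RN mouse.

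The median log2 fold change over the 39 tested members was 0.17, against 0.00 over all tested genes, and 28 members were on the positive side, where 50.8% of all tested genes were. Without RC replicate 1 the median was 0.26. By mouse, the members' median log2 deviation from the RC mean was -0.0004, 0.05 and 0.08 in RC replicates 1 to 3. In RN replicates 1 to 3 it was 0.24, 0.06 and 0.10, so the groups overlapped. For the 36 members outside the study's display the median log2 fold change was 0.16 and 25 were positive. The 95% interval of the log2 fold change lay inside a 2-fold change either way for 28 members, all of them among these 36, and for 81.2% of all tested genes. Fitted changes reached 2-fold in 6 members, all higher in RN, where 1.43% of all tested genes did so and 1.75% did so downward. Of these 6 members, 3 lay outside the study's display. The other 3 include Rgs13 and Piwil4, which passed the filter on low counts only through their RN mice. In bulk tissue, a different number of cells of a type and a different amount of RNA per cell cannot be told apart.

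**Figure D2:**
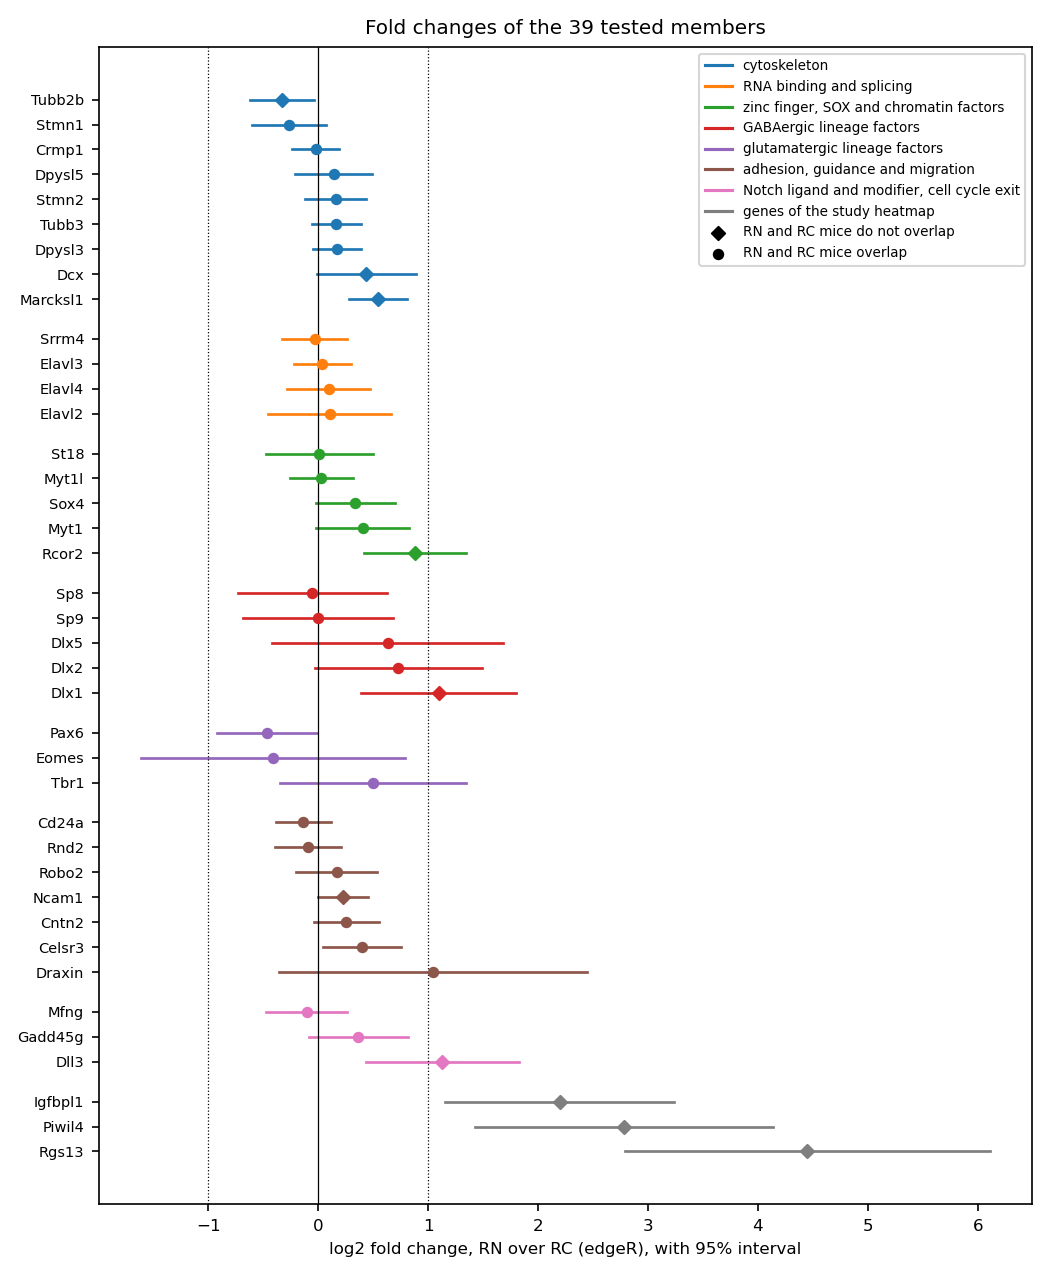
Fitted log2 fold changes of RN over RC (horizontal axis) with 95% intervals are shown for the 39 tested members, coloured by role, with diamonds where the mice of the groups do not overlap and dotted lines at a 2-fold change. The intervals of the 9 cytoskeletal and the 4 RNA-binding members all lie between the dotted lines.

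Promoter stretches are shown for the members that were higher at an unadjusted p under 0.05 in edgeR, did not overlap between groups and have exactly 1 start site in the RefSeq table (build GRCm38.p6), to show the letters upstream of members that were higher in every RN mouse. Each stretch is the 150 bases before the start site, from 5′ to 3′ on the gene's strand. They lie at chr1:144177373-144177522 (Rgs13, minus strand), chr4:129513431-129513580 (Marcksl1, plus strand), chr19:7267244-7267393 (Rcor2, plus strand), chr7:28301786-28301935 (Dll3, minus strand) and chr2:71529295-71529444 (Dlx1, plus strand). Capitals mark the E-boxes CAGATG, which reads CATCTG on the other strand, and CAGCTG, which is its own reverse complement, and the motifs do not overlap each other.
Rgs13: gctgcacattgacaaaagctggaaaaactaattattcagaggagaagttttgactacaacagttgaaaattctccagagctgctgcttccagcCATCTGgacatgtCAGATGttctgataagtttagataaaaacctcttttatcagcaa
Marcksl1: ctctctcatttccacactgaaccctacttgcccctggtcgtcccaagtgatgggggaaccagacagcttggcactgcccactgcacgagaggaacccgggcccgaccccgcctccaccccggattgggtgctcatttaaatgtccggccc
Rcor2: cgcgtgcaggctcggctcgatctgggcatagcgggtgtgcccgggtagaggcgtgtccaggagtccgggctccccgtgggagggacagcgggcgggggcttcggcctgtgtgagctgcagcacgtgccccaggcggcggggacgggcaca
Dll3: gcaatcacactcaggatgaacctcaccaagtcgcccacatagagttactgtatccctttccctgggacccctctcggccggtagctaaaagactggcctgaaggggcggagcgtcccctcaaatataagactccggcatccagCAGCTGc
Dlx1: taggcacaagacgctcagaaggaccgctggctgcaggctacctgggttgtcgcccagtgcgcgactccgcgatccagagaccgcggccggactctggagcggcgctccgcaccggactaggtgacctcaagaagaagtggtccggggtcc
Rgs13 held CATCTG beginning 57 bases and CAGATG beginning 44 bases before the start. Dll3 held CAGCTG beginning 7 bases before it, and the stretches of Marcksl1, Rcor2 and Dlx1 held neither motif. Each RefSeq window runs from 250 bases before to 50 bases after a start. Of the members, 29 had 51 such windows, of which 8 (15.7%) held CAGATG or its complement and 13 (25.5%) held CAGCTG. Over all 32851 windows the shares were 17.2% and 16.3%. Windows of 1 gene can overlap, and a match describes letters, not binding.

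Among the 4 genes of the study's display, Rgs13 (ENSMUSG00000051079), a regulator of G-protein signalling known from B cells and mast cells, gave 1, 2 and 0 reads in RC replicates 1, 2 and 3, against 31, 28 and 16 in the RN replicates of those numbers. The RC mice held 3 counts between them, at or under what a count of 0 allows in any 1 mouse, and all RN mice were well above. Over the groups, 75 counts in RN against 3 in RC gave a depth-scaled ratio of 24.4 (95% interval 8.02 to 121.0, exact and for counting error only). Across mice, edgeR gave an adjusted p of 0.0696, and of 0.0956 with the replicate block. Its level in RN was low all the same, at 1.41 ± 0.480 CPM (SD, n = 3 mice). The mast cell receptor genes Fcer1a and Ms4a2 were at or under 3 counts in all 6 mice. The summed level of the 14 lymphocyte and mast cell markers overlapped between groups, at 19.5 to 41.1 CPM (RC) and 27.7 to 42.9 CPM (RN). Only 4 of the 14 passed the filter on low counts, and the cell source of Rgs13 was not tested.

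Igfbpl1 (ENSMUSG00000035551), a secreted relative of the insulin-like growth factor binding proteins that marks neuroblasts, gave 11, 22 and 32 reads in RC against 55, 146 and 111 in RN. The groups did not overlap, and RN replicate 1 was the lowest of the RN mice. Mean levels were 1.25 ± 0.610 CPM (RC) and 5.76 ± 2.30 CPM (RN) (SD over 3 mice), 4.59-fold higher (standard error, SE, 0.452 on the log2 scale, edgeR adjusted p = 0.124). Piwil4 (ENSMUSG00000036912), a Piwi protein that acts with small RNAs in the germ line, gave 5, 1 and 4 reads in RC against 32, 16 and 24 in RN. All RN mice were above all RC mice, with a log2 fold change of 2.79 (SE 0.590, edgeR adjusted p = 0.126). Its RC counts were near the floor, and it passed the filter on low counts only through its RN mice. In the GENCODE M21 annotation 2.5% of the exon bases of Piwil4 are shared with an antisense gene, and reads of the 2 strands may not have been separated. Lrtm1, a leucine-rich repeat membrane protein, gave 2, 2 and 0 reads in RC against 7, 35 and 33 in RN, of which replicate 1 was again the lowest. Summed over mice, 75 counts against 4 gave a depth-scaled ratio of 18.3 (95% interval 6.84 to 68.8, counting error only), and DESeq2's Wald test gave it an adjusted p of 0.00698. In edgeR without a filter on low counts its adjusted p was 0.102.

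**Figure D3:**
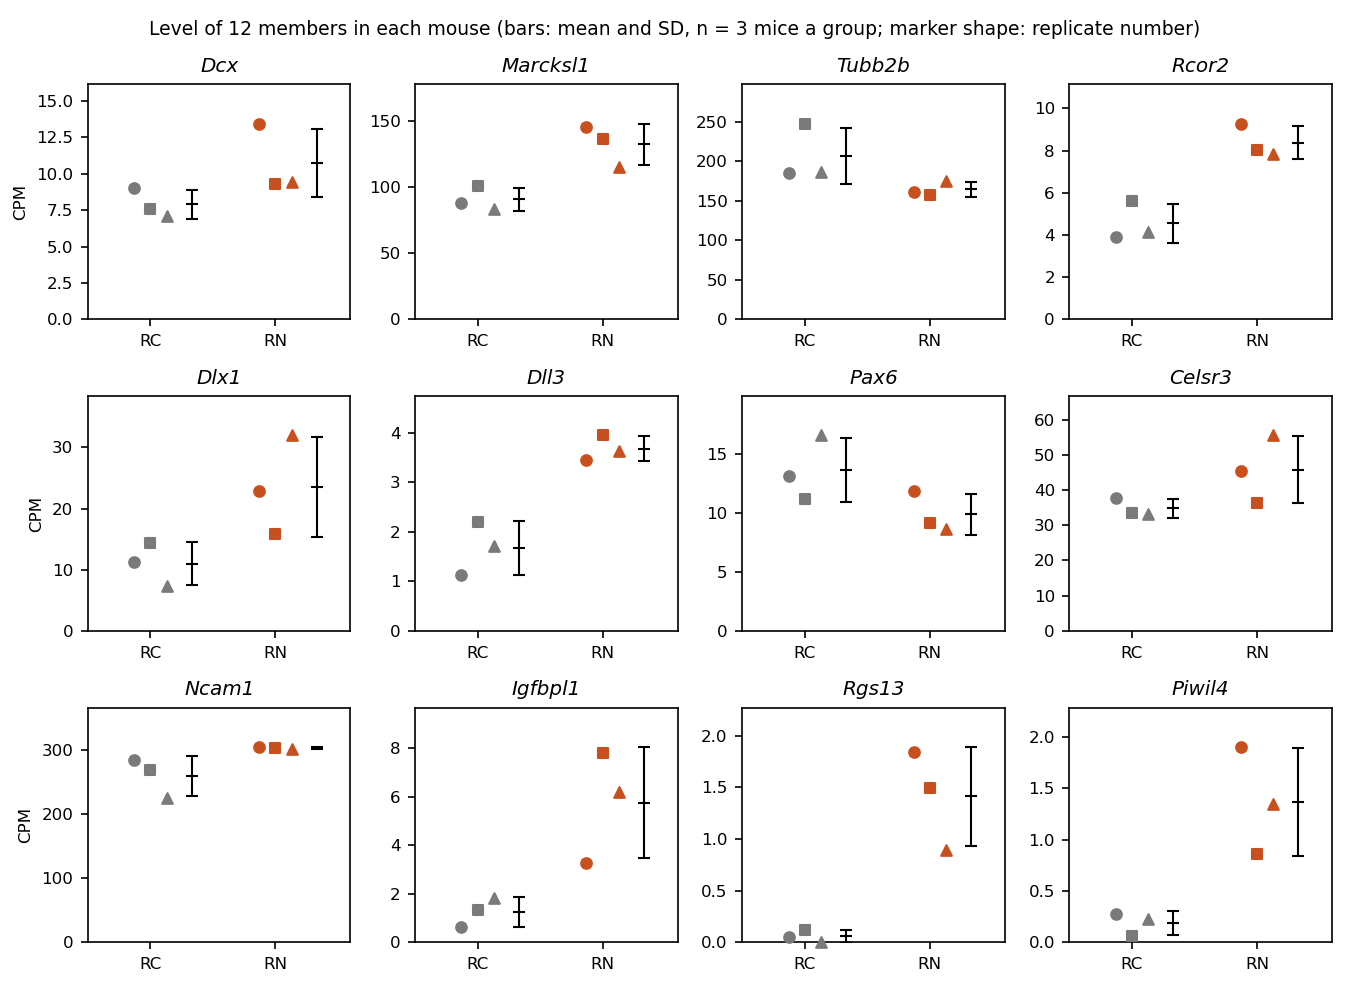
CPM (vertical axis, from 0) of 12 members is shown in each RC mouse (grey) and RN mouse (orange), with the mean and SD of the 3 mice beside each group. RN and RC mice overlap in the panels of Pax6 and Celsr3 and are apart in the other 10. The 12 were chosen for an unadjusted p under 0.05 or for groups without overlap, so this share follows from the choice.

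Cytoskeletal members all had intervals inside a 2-fold change. Doublecortin (Dcx, ENSMUSG00000031285), the microtubule-associated protein of migrating neuroblasts, gave 161, 127 and 124 reads in RC against 226, 174 and 169 in RN. RN replicate 1 stood highest at 13.4 CPM, while the lowest RN mouse, at 9.30 CPM, was barely above the highest RC mouse, at 9.03 CPM. The log2 fold change of Dcx was 0.44 (95% interval -0.01 to 0.89, edgeR adjusted p = 0.441), and 0.25 without RN replicate 1. Per length of exon, Dcx was at 0.625 ± 0.0792 CPM per kilobase (RPKM) in RC and 0.849 ± 0.186 RPKM in RN. That is far under the RPKM of the tubulin and stathmin genes below.

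Marcksl1 (ENSMUSG00000047945), an actin-binding protein of the MARCKS family, gave 1575, 1689 and 1459 reads in RC against 2456, 2554 and 2067 in RN. It was the cytoskeletal member whose groups lay furthest apart, with the lowest RN mouse at 115.6 CPM and the highest RC mouse at 100.9 CPM. Its log2 fold change was 0.55 (SE 0.116, edgeR adjusted p = 0.126), and between 0.47 and 0.64 when each mouse was left out in turn. DESeq2's Wald test gave an adjusted p of 0.00286 to this change of less than 2-fold. Reads can be shared with a pseudogene, Marcksl1-ps4. Tubb2b (ENSMUSG00000045136), a beta-tubulin of migrating neurons, went the other way, with 3299, 4143 and 3263 reads in RC against 2707, 2939 and 3135 in RN. All RN mice lay below all RC mice, of which RC replicate 2 was the highest. Its log2 fold change of -0.33 (SE 0.126, edgeR adjusted p = 0.352) was -0.18 without RC replicate 2. The closely similar Tubb2a can draw on the same reads.

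The other 6 cytoskeletal members overlapped between the groups. Tubb3, the class III beta-tubulin used to label neurons, was at 230.1 ± 22.6 RPKM in RC and 258.2 ± 17.1 RPKM in RN. For Tubb3 the log2 fold change of 0.17 had a 95% interval of -0.06 to 0.39. Stmn1, a tubulin-sequestering stathmin, was at 279.9 ± 42.6 RPKM in RC and 233.1 ± 38.6 RPKM in RN, and its log2 fold change was -0.26 (interval -0.60 to 0.07). The growth cone stathmin Stmn2 was at 59.4 ± 9.0 RPKM in RC and 66.4 ± 4.14 RPKM in RN, that is a log2 change of 0.16 (interval -0.12 to 0.43). The RPKM of Tubb3 and Stmn1 overlapped between mice in both groups, and each was above that of Stmn2 in every mouse. The collapsin response mediators Dpysl3, Dpysl5 and Crmp1, which relay guidance cues to microtubules, had log2 fold changes of 0.17, 0.14 and -0.02, with adjusted p of 0.557, 0.810 and 0.961 in edgeR. Dpysl5 gave 1306, 803 and 1167 reads in RC against 1232, 1313 and 1140 in RN, so that RC replicate 2 alone was low. Without that mouse the log2 fold change of Dpysl5 was -0.02.

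The differences of the RNA-binding and splicing members were also small. Elavl3, a pan-neuronal Hu protein, was at 20.4 ± 2.64 RPKM in RC and 21.0 ± 1.47 RPKM in RN. Elavl4 was at 12.6 ± 2.78 and 13.5 ± 1.38 RPKM, and Elavl2 at 9.87 ± 2.96 and 10.6 ± 2.57 RPKM. The order of the 3 Hu genes was the same in both groups, although Elavl2 and Elavl4 did not differ by more than their spread. Srrm4, which drives the inclusion of neuronal microexons, was at 4.10 ± 0.638 RPKM in RC and 4.01 ± 0.178 RPKM in RN. Log2 fold changes in these 4 genes lay between -0.03 and 0.10, and the adjusted p from edgeR between 0.896 and 0.963. Elavl2 gave 1782, 903 and 1609 reads in RC against 1896, 1390 and 1382 in RN. RC replicate 2 was the lowest of all 6 mice, and the log2 fold change of Elavl2, 0.10, was -0.12 without it and -0.11 without RN replicate 1. Each of the 4 was lowest in RC replicate 2.

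Among the SOX, zinc finger and chromatin factors, Rcor2 (ENSMUSG00000024968), a corepressor of the CoREST family that works with the demethylase LSD1, gave 70, 94 and 72 reads in RC against 156, 150 and 140 in RN. The groups were clearly apart, at 3.93 to 5.62 CPM (RC) and 7.83 to 9.28 CPM (RN). Its log2 fold change was 0.88 (SE 0.201, edgeR adjusted p = 0.137), and 0.78 to 1.06 with each mouse left out in turn. DESeq2's Wald test gave an adjusted p of 0.0242. Sox4, a SOXC factor of newborn neurons, gave 325, 245 and 316 reads in RC against 397, 333 and 411 in RN, with RN replicate 2 inside the RC range. Its log2 fold change was 0.34 (SE 0.157, edgeR adjusted p = 0.463). In GENCODE M21, 54.6% of the exon bases of Sox4 are shared with an antisense gene, so this count is uncertain. The zinc finger genes Myt1, Myt1l and St18 form 1 family. Myt1 gave 213, 158 and 216 reads in RC against 294, 283 and 216 in RN, that is a log2 change of 0.40 (SE 0.183, adjusted p = 0.446), with RN replicate 3 inside the RC range. Myt1l and St18 had log2 fold changes of 0.03 and 0.01. Myt1 is also a gene of oligodendrocyte precursors, whose 10 markers summed to 1205 to 1361 CPM in RC against 1117 to 1422 CPM in RN.

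GABAergic lineage factors were spread widely between mice. Dlx1 (ENSMUSG00000041911), a homeobox factor of forebrain inhibitory neurons, gave 202, 241 and 127 reads in RC against 383, 296 and 572 in RN. All RN mice were above all RC mice, but the gap between RN replicate 2, at 15.8 CPM, and RC replicate 2, at 14.4 CPM, was narrow. The fitted log2 fold change was 1.10 (SE 0.307, edgeR adjusted p = 0.203). Leaving out RN replicate 3 gave 0.81 and leaving out RC replicate 2 gave 1.34, while DESeq2's Wald test gave an adjusted p of 0.0109. Its antisense gene Dlx1as covers 6.2% of the exon bases of Dlx1 in GENCODE M21. The neighbouring Dlx2 gave 63, 96 and 53 reads in RC against 115, 84 and 162 in RN, and Dlx5 gave 32, 61 and 67 in RC against 53, 57 and 146 in RN. Both overlapped between groups, and RN replicate 3 was the highest mouse for all 3 Dlx genes. The log2 fold change of Dlx2 was 0.73 (SE 0.330, adjusted p = 0.446), and that of Dlx5 went from 0.63 to 0.00 without RN replicate 3. Sp8 and Sp9, zinc finger factors of olfactory bulb and striatal interneurons, had log2 fold changes of -0.05 and 0.00 with SEs of 0.294 and 0.296.

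Dlx1 and Dlx2 are also transcribed in GABAergic neurons of the hypothalamus and prethalamus. All 12 tested hypothalamus markers had positive log2 fold changes, with a median of 1.98, and 9 of them an unadjusted p under 0.05. The smallest p belonged to Oxt, Nkx2-1 and Six6, whose log2 fold changes were 1.85, 1.31 and 2.95. RC replicate 3, the lowest mouse for Dlx1, had the lowest hypothalamus sum of all mice, at 24.6 CPM, while RN replicate 3, the highest mouse for Dlx1, had the lowest sum of the RN mice, at 241.1 CPM. The 8 prethalamus and reticular thalamus markers summed to 149.9 to 266.9 CPM in RC against 128.4 to 230.2 CPM in RN, with a median log2 fold change of 0.13 over the 7 that were tested. Among those 7, Pvalb and Isl1 had the smallest p, with log2 fold changes of -0.65 and 0.64. The 10 thalamus markers all had negative log2 fold changes, with a median of -0.54, led by Plekhg1, Lef1 and Synpo2 at -0.58, -0.71 and -0.68, and none had an unadjusted p under 0.05. The part of neighbouring tissue in the Dlx values was not tested.

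**Figure D4:**
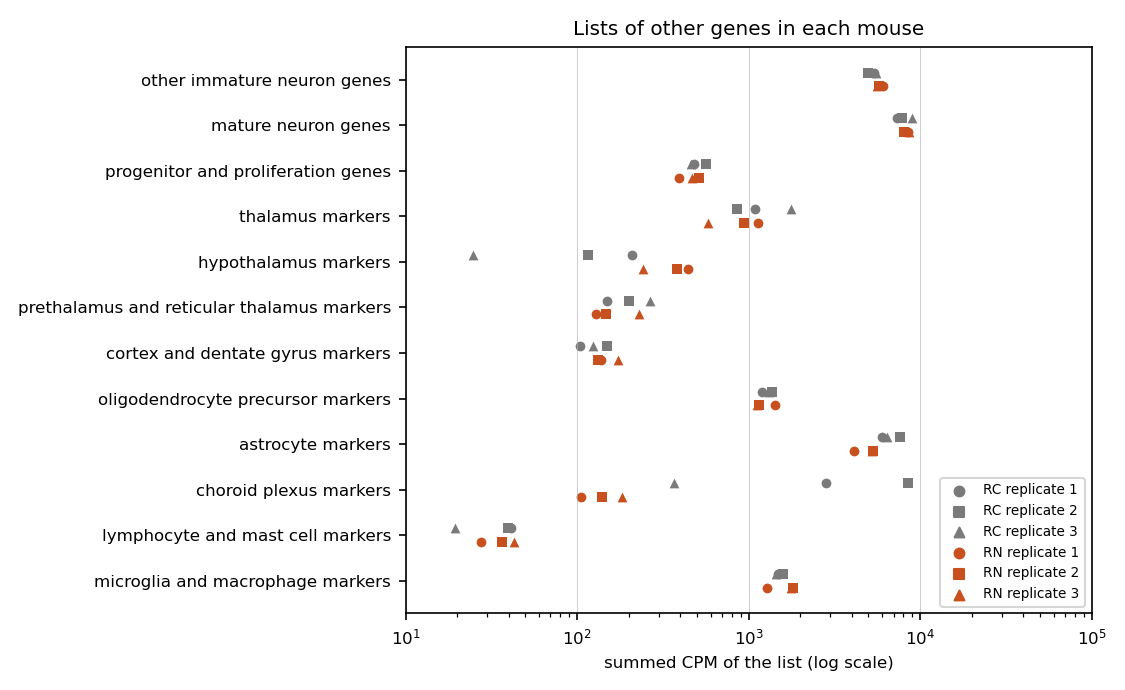
Summed CPM (horizontal axis, log scale) of 12 lists of other genes is shown for each RC mouse (grey) and RN mouse (orange), with a marker shape for each replicate number. The groups are apart for other immature neuron genes, hypothalamus, astrocyte and choroid plexus markers and overlap for the other lists. For the other immature neuron genes the gap is narrow, from 5536 CPM in RC replicate 3 to 5585 CPM in RN replicate 3.

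Glutamatergic lineage factors did not share a direction. Pax6 (ENSMUSG00000027168), a factor of radial glia that astrocytes also keep, gave 234, 188 and 290 reads in RC against 199, 172 and 154 in RN. RN replicate 1 lay above the lowest RC mouse. Its log2 fold change was -0.47 (SE 0.197, edgeR adjusted p = 0.407), between -0.62 and -0.30 with each mouse left out. Astrocyte markers differed in the same direction: all 9 had negative log2 fold changes, 6 with an unadjusted p under 0.05, and their sum was 5981 to 7671 CPM in RC against 4113 to 5286 CPM in RN. Aldoc, Sox9 and Aqp4, with the smallest p, had log2 fold changes of -0.76, -0.52 and -0.75, and the part of this difference in Pax6 was not tested. Eomes, the marker of intermediate progenitors, was low, with 26, 25 and 9 reads in RC against 18, 9 and 19 in RN. For Eomes the log2 fold change of -0.41 had a 95% interval from -1.61 to 0.79, which does not exclude a level 2-fold lower in RN. Tbr1, a factor of postmitotic cortical neurons, gave 52, 113 and 68 reads in RC against 123, 74 and 141 in RN, that is a log2 change of 0.50 (SE 0.368, adjusted p = 0.692). The cortex and dentate gyrus markers summed to 103.7 to 149.8 CPM in RC against 131.8 to 172.3 CPM in RN. Their median log2 fold change was 0.30 over 9 tested genes, with C1ql2, Lhx2 and Dsp, of the smallest p, at 0.62, -0.41 and 0.82.

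Of the adhesion, guidance and migration members, Celsr3 (ENSMUSG00000023473), an atypical cadherin required for axon tracts, gave 673, 560 and 578 reads in RC against 765, 680 and 994 in RN. RN replicate 3 was the highest, and RN replicate 2 lay inside the RC range. The log2 fold change was 0.40 (SE 0.154, edgeR adjusted p = 0.358), and 0.23 without RN replicate 3. Ncam1 (ENSMUSG00000039542), the neural cell adhesion molecule, gave 5090, 4511 and 3936 reads in RC against 5142, 5683 and 5410 in RN. Once scaled for depth, the RN mice stood close together at 302.5 to 305.9 CPM, above the RC mice at 225.5 to 285.5 CPM. For Ncam1 the log2 fold change was 0.23 (SE 0.10, edgeR adjusted p = 0.432). Cntn2, an axonal contactin that oligodendrocytes also make, gave 4074, 4371 and 4091 reads in RC against 4543, 6439 and 4481 in RN. RN replicate 2 alone stood out, and without it the log2 fold change of Cntn2 went from 0.26 to 0.10.

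Draxin, a secreted repellent of commissural axons, gave 9, 20 and 10 reads in RC against 43, 10 and 29 in RN. Its fitted log2 fold change of 1.04 was among the larger ones, but RN replicate 2 was at the RC level and the SE was 0.611 (edgeR adjusted p = 0.587). Without RN replicate 1 it was 0.51 and without RC replicate 2 it was 1.52. Robo2, a receptor for Slit cues, had a log2 fold change of 0.17 (interval -0.20 to 0.53). Cd24a, a surface glycoprotein of neuroblasts that leukocytes also carry, had -0.14 (interval -0.39 to 0.12). Rnd2, which acts in the radial migration of neurons, had -0.09 (interval -0.39 to 0.21), and 11.4% of its exon bases are shared with Vat1 in GENCODE M21.

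Of the Notch pathway and cell cycle exit genes, Dll3 (ENSMUSG00000003436), a divergent Delta ligand of differentiating neuroblasts that dampens Notch signalling in its own cell, gave 20, 37 and 30 reads in RC against 58, 74 and 65 in RN. The groups were apart, at 1.12 to 2.21 CPM (RC) and 3.45 to 3.96 CPM (RN). The fitted log2 fold change was 1.13 (SE 0.302, edgeR adjusted p = 0.188, and 0.0850 from DESeq2's Wald test), and 0.90 to 1.37 with each mouse left out. Mfng, a glycosyltransferase that modifies Notch receptors, averaged 8.27 ± 0.844 CPM in RC against 7.70 ± 0.611 CPM in RN, or a log2 fold change of -0.10 (interval -0.47 to 0.27). Gadd45g, a growth arrest gene, gave 225, 302 and 232 reads in RC against 266, 431 and 316 in RN, and the groups overlapped (log2 fold change 0.36, SE 0.197, edgeR adjusted p = 0.546).

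**Figure D5:**
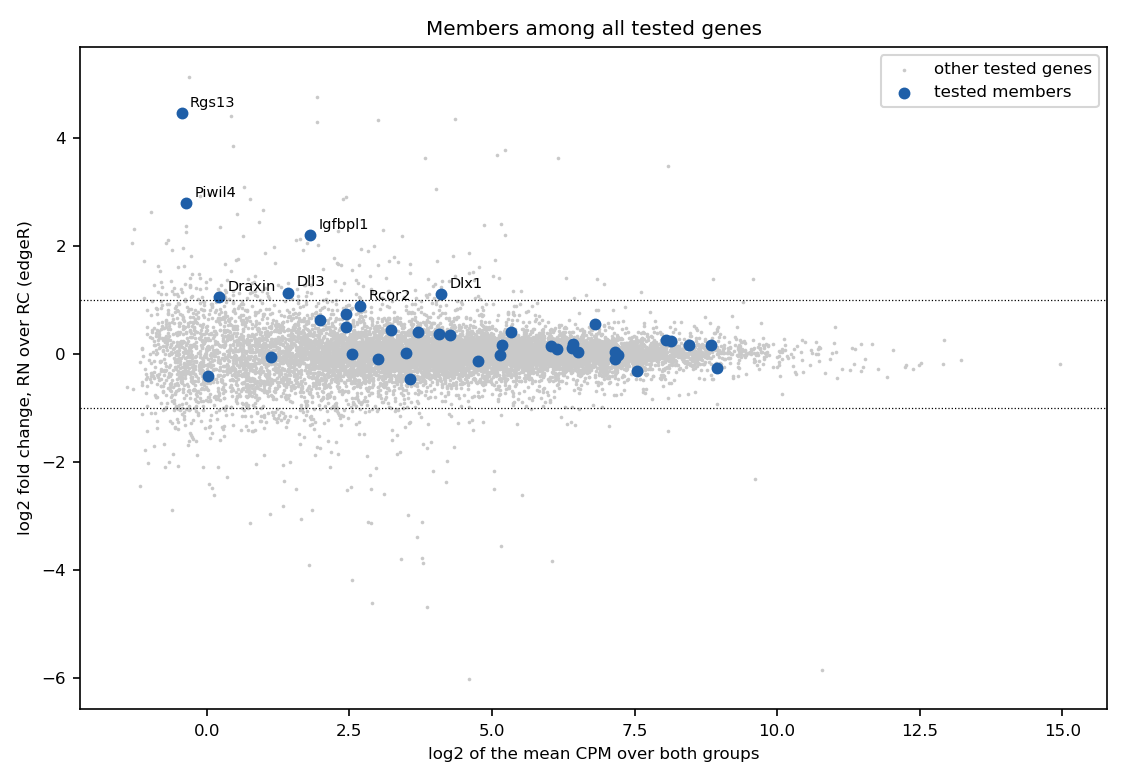
The log2 fold change of RN over RC (vertical axis) is plotted against the log2 mean CPM (horizontal axis) for all 14956 tested genes in grey and the 39 tested members in blue, with dotted lines at 2-fold. Members beyond 2-fold are Rgs13, Piwil4, Igfbpl1, Dll3, Dlx1 and Draxin, and the abundant members, to the right, lie near 0.

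All 40 genes of a list of other neuronal differentiation genes were tested, and none was called. At an unadjusted p under 0.05, 8 were higher and 1 lower, where 5.44% and 6.33% of all tested genes were. Every RN mouse lay above every RC mouse in 10 and below in 1, against 8.18% and 8.12% of all tested genes. The median log2 fold change of the list was 0.14. The smallest p belonged to Neurod4, a proneural factor, Dclk1, a doublecortin-like kinase, and Sox11, the close relative of Sox4. The study itself names Neurod4 among its most significantly higher genes in these same mice, and the list was chosen with earlier results known. Neurod4 gave 4, 0 and 2 reads in RC against 32, 54 and 52 in RN (fitted log2 fold change 4.40, which depends on the prior count, edgeR adjusted p = 0.0630). Sox11 gave 138, 116 and 183 reads in RC against 262, 241 and 346 in RN, and a log2 fold change of 0.93 (SE 0.214, adjusted p = 0.137). Dclk1 had a log2 fold change of 0.51. Among 17 mature neuron genes 1 was higher at an unadjusted p under 0.05 and none lower, with a median log2 fold change of 0.08. Gad2, Nefm and Slc32a1, with the smallest p, were at 0.50, 0.25 and 0.36. Among 14 progenitor and proliferation genes 2 were higher and 1 lower, with a median of 0.13. Egfr, Hes5 and Nes led them at 0.44, 1.00 and -0.44.

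For the remaining lists, 1 oligodendrocyte precursor marker was higher and 1 lower at an unadjusted p under 0.05, with a median log2 fold change of -0.07 and with C1ql1, Ptprz1 and Cspg4 at 1.34, -0.31 and -0.22. Of 9 microglia and macrophage markers 1 was higher, with a median of 0.10 and with Cd68, Itgam and Cx3cr1 at 0.60, 0.35 and -0.18. Only 4 of the lymphocyte and mast cell markers were tested and none had an unadjusted p under 0.05, with a median of -0.39 and with Cd8a, Cd3e and Cd4 at -1.15, -0.88 and 0.69. All 11 choroid plexus markers were lower at an unadjusted p under 0.05, with a median of -3.81 and with Ttr, Otx2 and Slc4a5 at -5.85, -1.75 and -4.68.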

How the data were processed

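Whole-number read counts, not normalized, were deposited by the authors for each gene and mouse. The submitters' processing notes name fastp 0.18.0, FastQC, HISAT2 2.2.4, RSEM 1.2.19 and the build GRCm39. The annotation, the use of strand and the treatment of reads shared between genes are not given in the sources used here. Samples were grouped by their labels.

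Genes were filtered in edgeR 4.0.16 under R 4.3.3 (filterByExpr, minimum count 10), normalized with TMM and tested on group alone with the quasi-likelihood test over 14956 genes. Standard errors are the log2 fold change (prior count 0.125) over the root of F, and 95% intervals use the test's degrees of freedom. CPM use TMM library sizes. A count of 0 allows up to 3 counts, 0.160 to 0.179 CPM, which covers counting error only. Where every RC mouse was at or under 3 counts, summed counts were compared by their ratio with an exact conditional interval. Scripts were tested on simulated counts. RPKM use exon lengths of GENCODE M21 (GRCm38), which matched all 40 members.

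The members and lists were chosen with earlier results of these data known. Every member is named, with full statistics for those with an unadjusted p under 0.05, those without overlap and those of the study's display. Of each list the 3 genes of smallest p are named, and Neurod1, except that 1 gene of the prethalamus list is not reported here. DESeq2 1.42.0, its size factors in edgeR, no filter, no fold threshold, the replicate block and each mouse left out were alternatives. Both groups use replicate numbers 1 to 3. Same-numbered mice shared deviations from their group means, with correlations of 0.173, 0.120 and 0.209 for replicates 1, 2 and 3. Of the other pairs RC replicate 1 with RN replicate 2 reached 0.156 and the rest lay between -0.285 and 0.0603. No source says what a number marks. Nothing states that the mice of a group differ in litter or batch, so p-values measure the spread between these mice. Within a group, chi-square over degrees of freedom for pairs of mice was 15.8 to 31.8, above counting noise, and every mouse was kept as a replicate.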

Additional observations from a re-analysis of the deposited data

How the results depend on the processing

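The calls over all genes moved most. Against 9 higher and 2 lower genes, DESeq2's Wald test called 99 and 87, edgeR on unfiltered genes 36 and 7, and edgeR with the replicate block 17 and 5. Leaving out each mouse in turn gave between 3 and 26 higher and between 0 and 18 lower genes. Of the members, DESeq2's Wald test called 5 higher, against 0 in the main edgeR setting and in its 9 other edgeR settings, with or without the fold threshold. At an unadjusted p under 0.05, the replicate block moved the members from 8 to 13 higher and from 2 to 1 lower, and it changed no call of a member. The lower count ran from 0 (without RN replicate 2) to 2 with each mouse left out. The members Rgs13, Igfbpl1, Piwil4, Marcksl1, Rcor2, Dll3 and Dlx1 had an unadjusted p under 0.05 in the main setting and in all 10 alternatives. The settings reuse the same mice, and Rgs13, Igfbpl1 and Piwil4 are genes of the study's display. In the main setting Rgs13 and Piwil4 passed the filter on low counts only through their RN mice. The share of all tested genes with an unadjusted p under 0.05 in every setting was not counted, so this gives no result about the members. The median log2 fold change of the tested members was 0.26 without RC replicate 1 and ran from 0.13 to 0.26 over the 6 fits short of 1 mouse. In those fits 10 of the 39 tested members changed sign at least once, none with a log2 fold change above 0.14 in size. Causes were not tested. Among tested members the SE was highest in Rgs13, Draxin, Piwil4 and Eomes, all under 50 counts in every mouse.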

Other observations

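The members differed in which mouse stood highest. RN replicate 1 was the highest of the 6 mice in 15 of the 39 tested members (38.5%), against 16.9% of all tested genes, and RC replicate 1 was the highest in 1. RC replicate 2 was the lowest in 13 members (33.3%), against 19.5% of all tested genes. Members that peaked in RN replicate 1 include Dcx, Stmn2, Marcksl1, Elavl2, Elavl4, Myt1 and Rcor2, while Dlx1, Dlx2, Dlx5, Tbr1, Celsr3 and Robo2 peaked in RN replicate 3. These mice and genes were singled out after their values were seen, and no test was made.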
